A study of Mus musculus with 3 samples.

Results

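Immediate early genes are genes that cells transcribe within minutes of a stimulus without first making new protein. The set described here has 36 members, chosen by gene symbol, of which 35 have a row among the 29994 genes of the deposited matrices. Egr4 has no row. RNA was counted per droplet barcode in ventricular tissue of C57B6 mice that was kept frozen until processing, on the 10x Genomics platform. There were 3 libraries, each from 3 pooled hearts. Sham and TAC animals received vehicle, and animals of the third group received artesunate in addition to TAC (TAC+ART). TAC, transverse aortic constriction, narrows the aorta and loads the left ventricle, and artesunate is an artemisinin-type antimalarial. The sources used here give no age, sex, dose or time after surgery and do not say if nuclei or whole cells went on the chip, so a kept barcode is simply called a cell. With 1 library per group there is no replicate, so the values describe these libraries, no test was made, and the 95% intervals cover counting error only.

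Stretch, growth factors and catecholamines activate MAP kinases and calcium signals in heart cells. These act on factors already in the cell, such as SRF with its ELK partners and CREB, which switch on the immediate early genes. The first proteins made are transcription factors (the FOS and JUN families that form AP-1, EGR, NR4A, KLF, ATF3, C/EBP and MYC) and proteins that end the response (DUSP phosphatases, ZFP36, BTG2 and ERRFI1). In the pressure-loaded heart the early rise of Fos, Jun and Egr1 is known to be brief.

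Promoters from RefSeq (GRCm38.p6, 250 bases before to 50 after the start) were found for 29 of the 36 members. No entry was found for Fosl1, Egr1, Egr3, Ier2, Myc, Sik1 and Cebpd. On either strand, the EGR motif GCGNGGGCG stood in the promoters of 11 of the 29 members, against 6.27% of all genes in the table. The SRF motif, the CArG box, stood in those of 4 members (all genes 1.81%) and the CRE TGACGTCA, bound by CREB, in those of 4 (2.03%). The AP-1 motif TGANTCA stood in those of 1 member, against 8.97% of all genes. The 4 promoters below show each of the first 3 motifs in a member whose level differed between the libraries, with the motifs in capitals. Egr2 is shown with its CArG box (chr10:67537619-67537918, plus strand, 1 of 5 starts listed), Zfp36 with an EGR motif and a CArG box (chr7:28379179-28379478, minus strand), Nr4a1 with an EGR motif on the other strand (chr15:101266596-101266895, plus strand) and Errfi1 with a CRE (chr4:150854820-150855119, plus strand, 1 of 2 starts listed). The motifs do not overlap in these 4 promoters. A match is a description, not a site or a cause.
Egr2: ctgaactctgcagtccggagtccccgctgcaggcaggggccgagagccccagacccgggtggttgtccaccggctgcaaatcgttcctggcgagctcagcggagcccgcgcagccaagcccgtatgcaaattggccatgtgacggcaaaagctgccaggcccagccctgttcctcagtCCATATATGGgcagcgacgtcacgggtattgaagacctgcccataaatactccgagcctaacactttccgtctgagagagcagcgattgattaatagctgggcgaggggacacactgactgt
Zfp36: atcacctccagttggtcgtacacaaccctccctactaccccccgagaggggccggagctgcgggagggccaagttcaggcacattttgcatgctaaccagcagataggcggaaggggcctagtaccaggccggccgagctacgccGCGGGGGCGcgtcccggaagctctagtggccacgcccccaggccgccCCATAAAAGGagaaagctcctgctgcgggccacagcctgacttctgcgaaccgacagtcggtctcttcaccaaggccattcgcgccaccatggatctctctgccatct
Nr4a1: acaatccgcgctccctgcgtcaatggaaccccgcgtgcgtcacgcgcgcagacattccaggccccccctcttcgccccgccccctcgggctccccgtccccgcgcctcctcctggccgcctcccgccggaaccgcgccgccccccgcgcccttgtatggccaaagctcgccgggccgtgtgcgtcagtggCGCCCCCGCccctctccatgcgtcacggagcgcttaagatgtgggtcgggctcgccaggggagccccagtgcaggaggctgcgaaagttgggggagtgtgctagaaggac
Errfi1: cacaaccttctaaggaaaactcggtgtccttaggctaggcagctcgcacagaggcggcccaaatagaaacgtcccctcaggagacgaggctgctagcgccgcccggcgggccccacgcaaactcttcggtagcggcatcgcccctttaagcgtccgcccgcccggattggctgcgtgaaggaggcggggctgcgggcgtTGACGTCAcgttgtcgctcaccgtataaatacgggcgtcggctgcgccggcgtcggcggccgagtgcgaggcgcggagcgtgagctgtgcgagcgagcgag

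The libraries kept 3638 (Sham), 6972 (TAC) and 6480 (TAC+ART) cells after filtering, with medians of 4310 to 4811 UMIs per barcode before it. Cells were assigned to classes by fixed markers, and 7 classes had at least 50 cells in each library. Fibroblast, endothelial, macrophage and cardiomyocyte gated cells are the main classes, with 1020, 985, 300 and 238 cells in Sham, 1337, 1871, 1253 and 153 in TAC, and 1588, 1780, 930 and 257 in TAC+ART. Every marker of a main class was detected in its own cells, which were gated by those same markers. Detection alone does not set a class apart. All 10 cardiomyocyte, 9 endothelial and 10 macrophage markers were detected in fibroblasts too. Any pair of libraries shared 18 to 27 barcode sequences. The TAC library stood apart: in clusters made without the members, 88.0% of TAC fibroblasts lay in a cluster that held 1.86% of Sham and 7.05% of TAC+ART fibroblasts. In macrophages the leading TAC cluster held 95.2% of TAC cells against 2.33% of Sham and 3.44% of TAC+ART cells. In endothelial cells it held 46.5% against 3.96% and 6.18%. The leading cardiomyocyte cluster held 92.9%, 56.2% and 82.9% of Sham, TAC and TAC+ART cells, and another held 4.62%, 30.1% and 10.1%. The 3 comparisons share libraries, so the TAC library is the numerator of TAC over Sham and the denominator of TAC+ART over TAC.

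Levels are counts per 10000 UMIs of a class in a library, times 100 (CPM), and triplets of values follow the order Sham, TAC, TAC+ART. Over all members together, fibroblasts had 913, 1773 and 921 CPM. Endothelial cells had 1584, 2364 and 1372, macrophages 1017, 1254 and 831, and cardiomyocytes 581, 831 and 420. The TAC library was highest in each, but relative to the housekeeping list the TAC over Sham ratio of the sum became -0.01 in macrophages and -0.47 in cardiomyocytes. Pericytes had 906, 1312 and 742 CPM, lymphatic endothelial cells 1474, 1852 and 1277, and endocardial cells 1135, 1139 and 1001. TAC+ART was lowest in every class but fibroblasts, where it lay beside Sham.

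**Figure D1:**
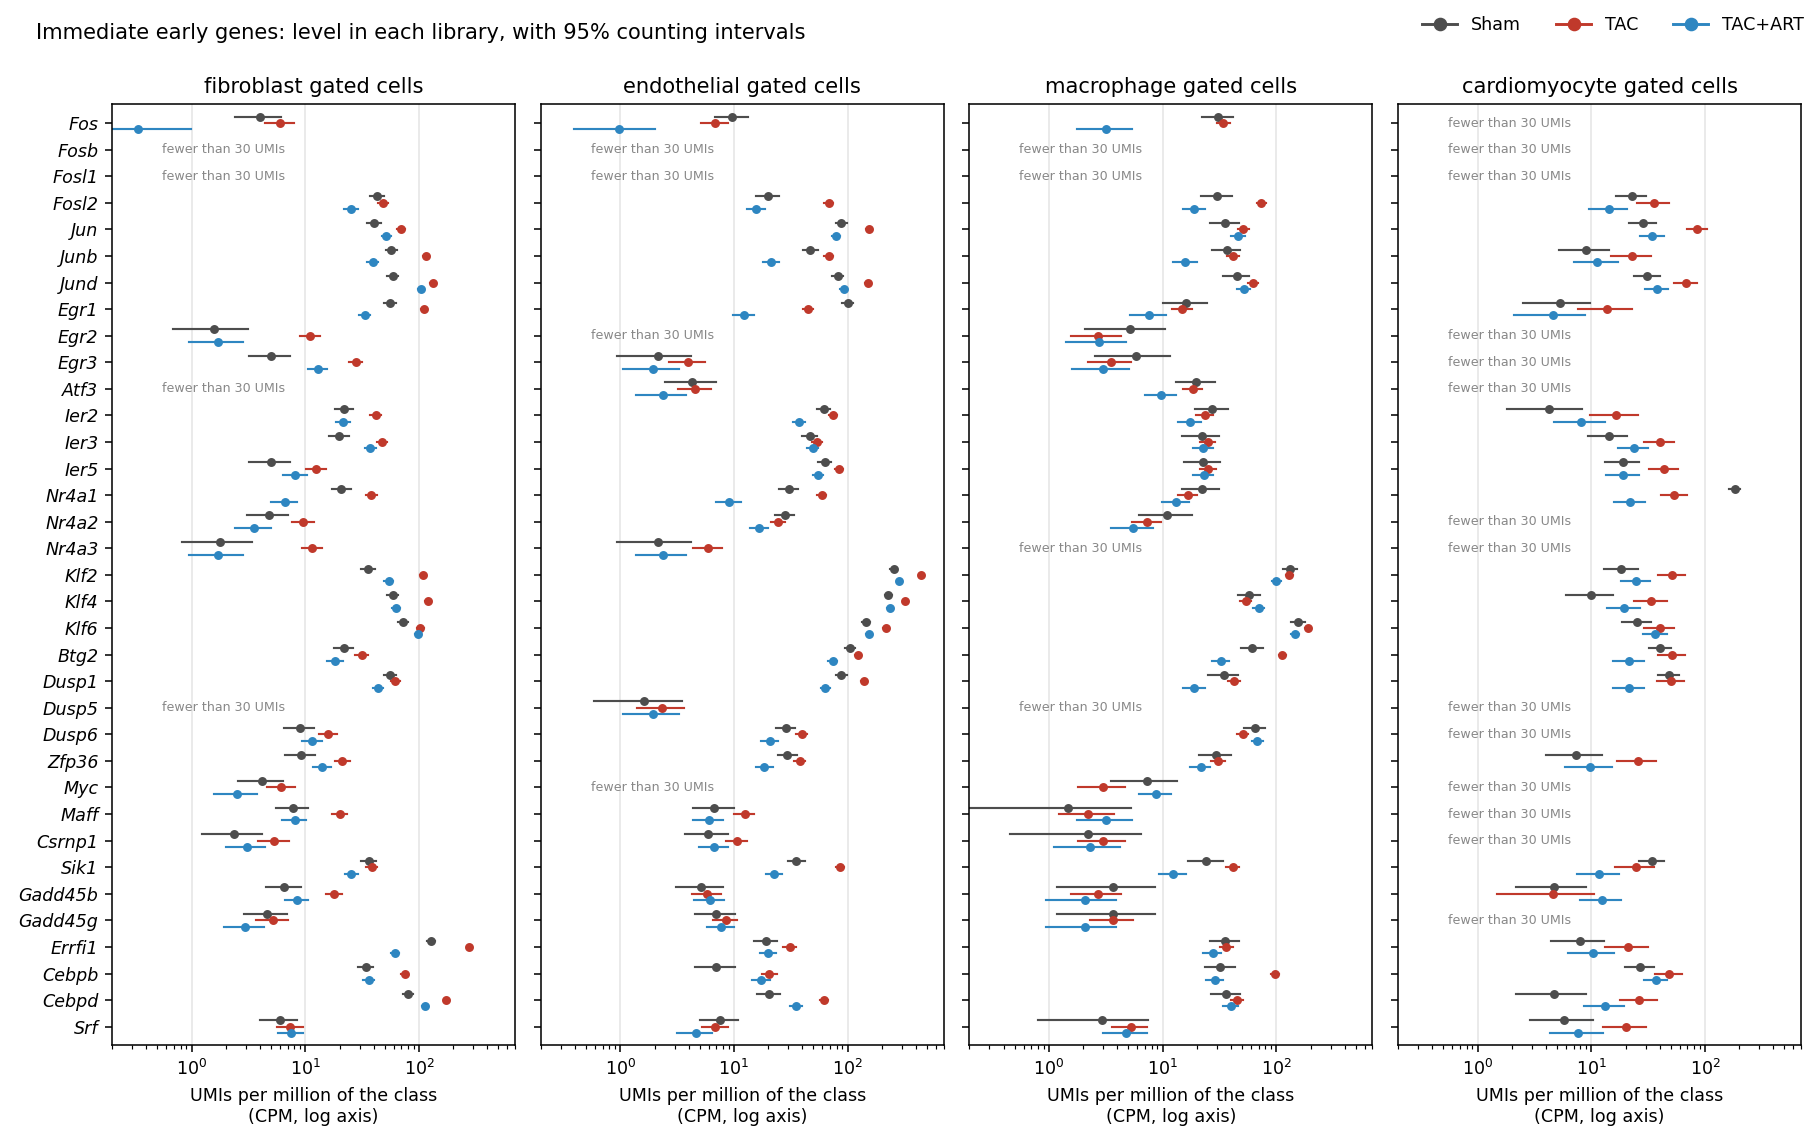
Level of each member by library in the 4 main classes, in CPM on a log axis; points are class sums and lines 95% Poisson intervals. In fibroblasts the TAC points lie to the right of the Sham points for all 31 measured members, and Fos in TAC+ART lies far to the left of both other libraries in fibroblasts, endothelial cells and macrophages.

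In fibroblasts, the matrix-making cells, the set as a whole was higher in TAC than in Sham and lower again in TAC+ART. A member counts as measured with at least 30 UMIs over the 3 libraries, and its ratio between libraries is on the log2 scale, each count raised by 0.5. Of 31 measured members 22 were at least 1.5-fold higher in TAC than Sham and none was 1.5-fold lower, with a median of 1.0. Fos, Egr2 and Nr4a3 reached 30 UMIs only with their TAC counts, so they could be measured only by being high there, and without them the count was 20 of 28. Of all 15849 genes measured in fibroblasts 18.3% were 1.5-fold higher and 16.6% lower, with a median of 0.00. From TAC to TAC+ART, 24 of 31 members were 1.5-fold lower (all genes 8.87%) and none higher (11%), and their median was -0.94 against -0.03 for all genes. Against Sham, TAC+ART had 6 members 1.5-fold higher (all genes 11.9%) and 7 lower (8.43%).

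Genes outside the set also differed between these libraries. The housekeeping list had a median of 0.64 in TAC over Sham (11 of 20 at least 1.5-fold higher), with Gapdh at 87.8, 258 and 154 CPM, and the heat shock list 1.16 (13 of 16). Of genes spanning at most 10 kb, as 24 of the 35 members do, 29.7% were 1.5-fold higher. Centred on the housekeeping list, a reference chosen after the data were seen, the 22 members past 1.5-fold became 8 and their median 0.36. The 22 stayed above 0 under each of the 5 alternative scalings tried, housekeeping centring included. Macrophage markers, all 10 of them detected, summed to 125, 267 and 245 CPM in fibroblasts, and the 9 endothelial markers to 212, 297 and 322. The part of these differences in the members' values was not tested.

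The AP-1 genes differed in the size of their ratios. Fos, the partner of JUN proteins, had 20 UMIs in Sham fibroblasts, 49 in TAC and 3 in TAC+ART, or 3.96, 6.02 and 0.34 CPM. It was thus low in all 3 libraries, and its TAC over Sham ratio of 0.58 (-0.17 to 1.43) included 0 and turned to -0.06 centred on the housekeeping list, while TAC+ART over TAC was -3.94 (-6.47 to -2.51). Junb had 57.3, 115 and 39.0 CPM, with 1.0 (0.81 to 1.2) in the first ratio, TAC over Sham, and -1.56 (-1.74 to -1.38) in the second, TAC+ART over TAC. Jun had 40.4, 69.4 and 51.6 CPM and Jund 58.8, 132 and 104, so in both TAC+ART lay between the other libraries. Fosl2 had 42.8, 48.5 and 25.3 CPM, and its TAC over Sham ratio of 0.18 (-0.06 to 0.43) turned to -0.46 centred on the housekeeping list. Fosb (11 UMIs), Fosl1 (15) and Atf3 (23) were not measured.

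EGR and NR4A genes are zinc finger and orphan nuclear receptor transcription factors. Egr2 had 8, 90 and 15 UMIs (1.59, 11.1 and 1.70 CPM), Nr4a3 had 9, 94 and 15, and Egr3 had 25, 226 and 113. Their ratios were 2.72 (1.76 to 4.06), 2.63 (1.71 to 3.87) and 2.46 (1.89 to 3.15), and Egr2 and Nr4a3 were back near the Sham level in TAC+ART. As given above, Egr2 and Nr4a3 could be measured only by being high in TAC. Egr1 had 55.9, 111 and 33.2 CPM and Nr4a1 20.8, 38.1 and 6.58, both below Sham in TAC+ART. For Nr4a1 TAC+ART over TAC was -2.52 (-2.96 to -2.13) and TAC+ART over Sham -1.66 (-2.15 to -1.19). A UMI of Egr1 was seen in 10.8%, 28.2% and 9.51% of fibroblasts, and the 10 cells with the most UMIs held 31.2%, 13.5% and 31.1% of them, with 35 of the 293 UMIs of TAC+ART in 1 cell.

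Of the Krüppel-like factors, which respond to flow and growth signals, Klf2 and Klf4 were past 1.5-fold in TAC. Klf2 had 35.7, 109 and 54.2 CPM, a ratio of 1.61 (1.38 to 1.85), the highest among the KLF genes. Klf4 had 58.8, 120 and 62.6 CPM. Klf6 had 72.9, 102 and 98.2 CPM, and its ratio of 0.49 (0.31 to 0.67) turned to -0.15 centred on the housekeeping list.

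Among genes that restrain the response, Errfi1, the inhibitor of EGF receptor kinases, had the most UMIs. It had 128, 276 and 61.6 CPM in fibroblasts, with ratios of 1.11 (0.98 to 1.24) and -2.16 (-2.30 to -2.03), and a UMI of it was seen in 29.6%, 54.1% and 22.3% of cells. Zfp36, which drives decay of cytokine mRNAs, had 9.11, 21.1 and 14.1 CPM. Dusp1, a MAP kinase phosphatase, had 55.5, 61.8 and 44.0 CPM, and its ratio of 0.15 (-0.06 to 0.37) included 0, as did that of Sik1, a salt-inducible kinase, at 0.07 (-0.19 to 0.35). Gadd45g (0.17), with Dusp1, Sik1 and Fosl2, completed the 4 lowest ratios, and all 4 were below 0 centred on the housekeeping list. Cebpb and Cebpd, C/EBP factors of inflammatory programmes, both had 1.13. Myc had 4.16, 6.14 and 2.50 CPM and Srf 5.94, 7.37 and 7.49, and the TAC over Sham intervals of both included 0. Srf (0.02), Klf6 (-0.06), Jund (-0.34) and Ier3 (-0.35) had the highest TAC+ART over TAC ratios. Ier2, Ier3, Ier5, Btg2, Dusp6, Maff, Csrnp1 and Gadd45b lay between 0.51 (Btg2) and 1.44 (Gadd45b) for TAC over Sham, and Dusp5 (18 UMIs) was not measured.

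**Figure D2:**
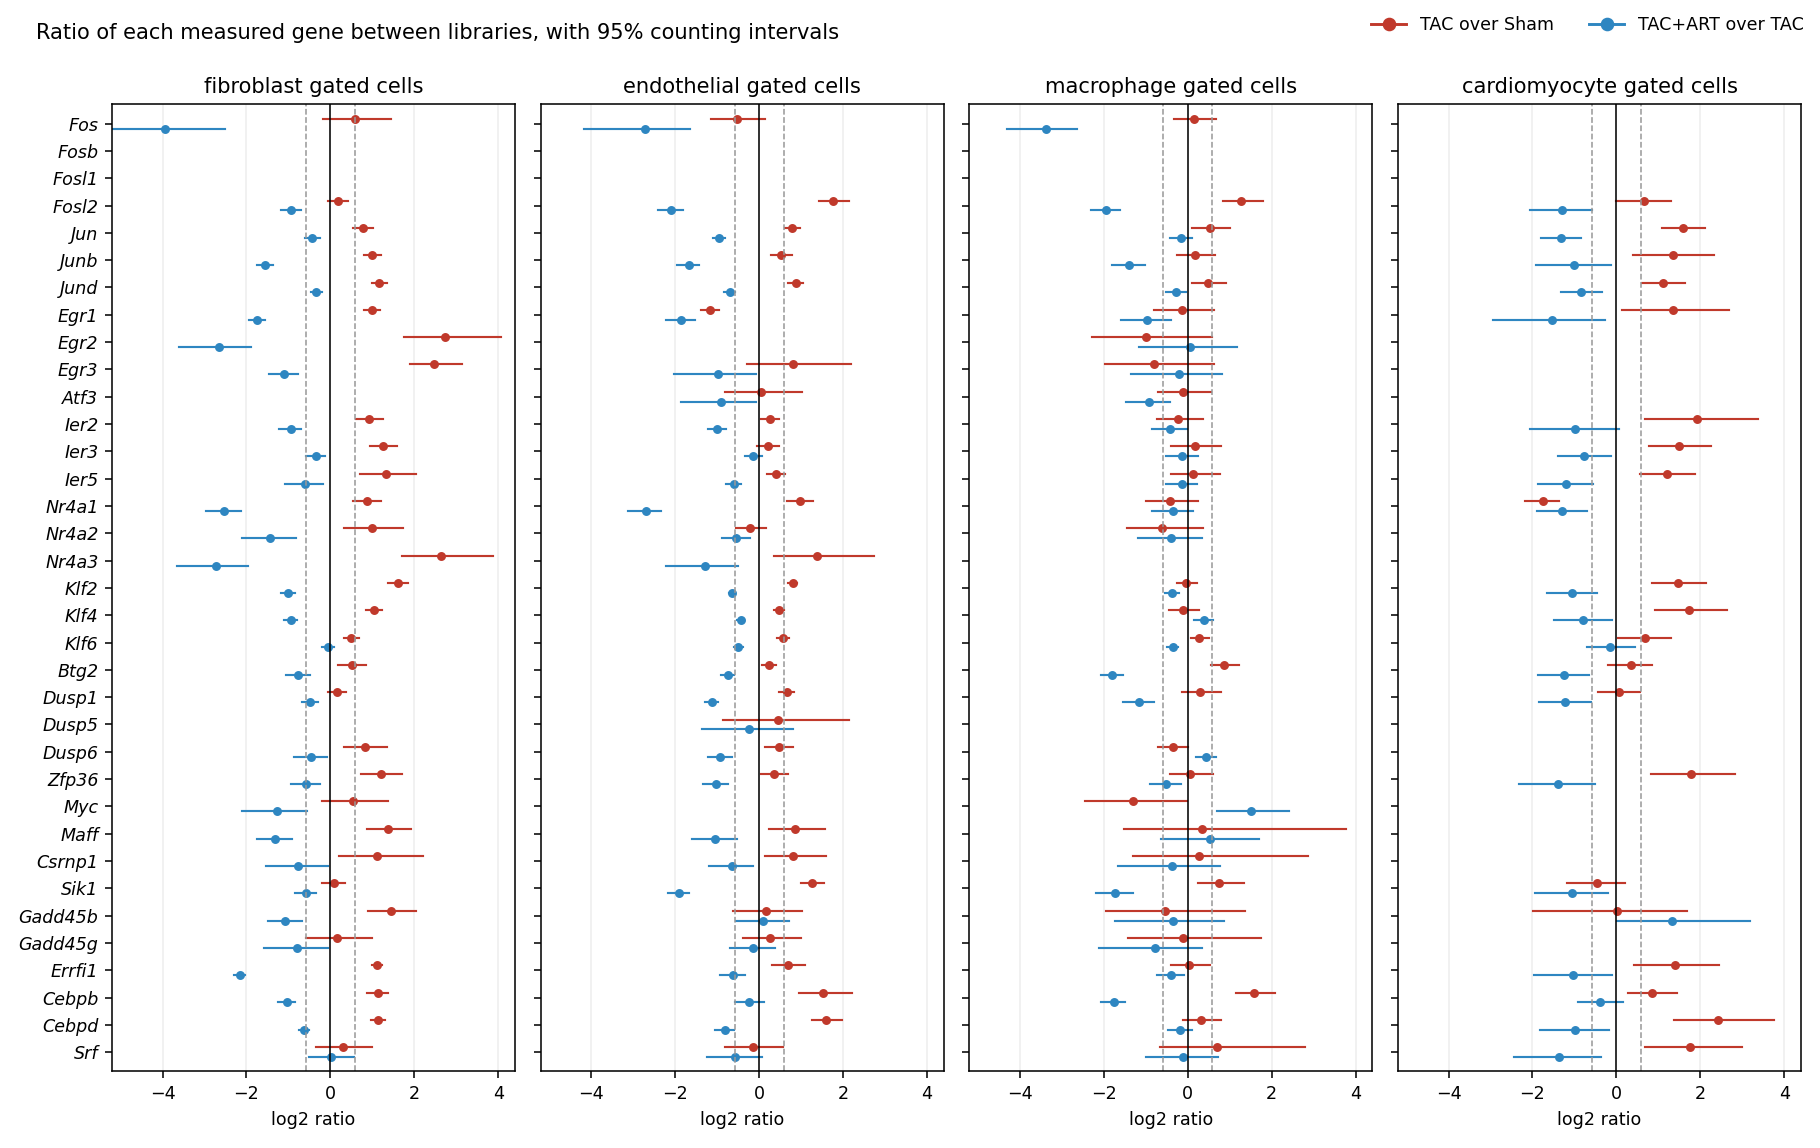
Log2 ratio of each measured member in the 4 main classes, with TAC over Sham in red and TAC+ART over TAC in blue; lines are 95% counting intervals and dashed lines mark 1.5-fold. Both comparisons use the TAC library. In fibroblasts all 31 TAC over Sham points lie above 0, and in cardiomyocytes Nr4a1 lies lowest at -1.75.

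In endothelial cells the set was also higher in TAC, with more exceptions. Of 31 measured members 14 were 1.5-fold higher in TAC than Sham, beside 12.8% of all genes, and 1, Egr1, was lower (12.8%). The median was 0.53, against -0.05 for all genes. Without Egr3, Nr4a3 and Dusp5, measured only through their TAC UMIs, 12 of 28 were higher. From TAC to TAC+ART 22 of 31 were 1.5-fold lower (all genes 6.78%) and none higher (9.33%), and the median was -0.82. TAC+ART over Sham had 2 members higher (9.41%) and 10 lower (7.11%). Centred on the housekeeping list, whose own median was 0.39, the 14 became 5 and the median 0.14. The heat shock list had 11 of 16 genes 1.5-fold higher. Fibroblast markers summed to 1081, 2671 and 3187 CPM in endothelial cells and macrophage markers to 173, 381 and 364, with all 10 of each detected, and their part in the members' values was not tested.

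Fosl2 and the C/EBP genes led. Fosl2 had 19.9, 68.0 and 15.7 CPM, with 1.77 (1.42 to 2.15) and -2.11 (-2.42 to -1.82). Cebpd had 20.4, 62.0 and 35.0 CPM (1.60), Cebpb 6.98, 20.5 and 17.4 (1.53) and Nr4a3, measured only through its TAC UMIs, 2.15, 5.88 and 2.36 (1.38). Cebpb in TAC+ART was 1.30 (0.70 to 1.99) above Sham, so it stayed high where most members did not. Sik1 had 35.4, 85.5 and 22.7 CPM and Nr4a1 30.3, 59.3 and 9.04, among the 4 lowest TAC+ART over TAC ratios at -1.91 and -2.71, beside Fos and Fosl2.

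Egr1 went the other way from fibroblasts. It had 99.8, 44.6 and 12.2 CPM, with -1.16 (-1.37 to -0.95) for TAC over Sham. It was seen in 18.5%, 11.97% and 3.71% of the cells. Fos had 36, 55 and 7 UMIs (9.66, 6.74 and 0.973 CPM), with -0.53 (-1.15 to 0.13), and -3.23 (-4.72 to -2.12) for TAC+ART over Sham. In Sham 10 cells held 69.4% of its UMIs, and a UMI of it was seen in 2.13%, 2.51% and 0.39% of the cells. The other 2 lowest TAC over Sham ratios, Nr4a2 at -0.20 and Srf at -0.14, had intervals that included 0. The highest TAC+ART over TAC ratios were those of Gadd45b (0.09), Gadd45g (-0.14), Ier3 (-0.14) and Cebpb (-0.23).

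The flow-responsive genes Klf2 and Klf4 had their highest level of the 7 classes in endothelial cells. Klf2 had 254, 441 and 282 CPM, with 0.80 (0.69 to 0.90) and -0.65 (-0.73 to -0.57). Klf4 had 228, 318 and 235 CPM, a ratio of 0.48 (0.37 to 0.59) that did not reach 1.5-fold. Jun (88.0, 153 and 78.7), Jund (82.1, 150 and 92.3) and Dusp1 (87.8, 139 and 63.4 CPM) were each past 1.5-fold in TAC over Sham. Junb had 47.0, 67.9 and 21.1 CPM. Zfp36 (29.5, 37.8 and 18.5 CPM) had 0.35, and -0.04 centred on the housekeeping list. Atf3, a stress-induced repressor, had 4.29, 4.54 and 2.36 CPM. Egr3, Ier2, Ier3, Ier5, Klf6, Btg2, Dusp5, Dusp6, Maff, Csrnp1, Gadd45b, Gadd45g and Errfi1 lay between 0.15 (Gadd45b) and 0.86 (Maff) for TAC over Sham. Myc (17 UMIs), Fosb (22), Fosl1 (27) and Egr2 (11) were not measured.

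In macrophages the set as a whole was near the background of all genes between TAC and Sham. Of 31 measured members 5 were 1.5-fold higher, beside 12.8% of all genes, and 4 lower (16.4%), with a median of 0.13. The 5 were Cebpb, Fosl2, Btg2, Sik1 and Srf, and the interval of Srf included 0. Measured only through 1 library were 8 members, 7 through TAC (Egr2, Egr3, Maff, Csrnp1, Gadd45b, Gadd45g and Srf) and Myc through TAC+ART, and without them 4 of 23 were higher and 1 lower. Clusters in place of the gate gave 8 members higher, and the housekeeping reference 2. From TAC to TAC+ART 10 members were 1.5-fold lower (7.62%) and 1, Myc, higher (8.6%), and 15 were lower in TAC+ART than Sham (14.3%). Fibroblast markers, all 10 detected, summed to 1235, 2284 and 2742 CPM in macrophages and endothelial markers to 500.2, 314 and 352, and their part in these ratios was not tested.

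A few macrophage members lay well past 1.5-fold. Cebpb, a driver of inflammatory macrophage genes, had 32.2, 97.6 and 28.6 CPM, with 1.58 (1.16 to 2.07) and -1.76 (-2.06 to -1.49). Btg2, an antiproliferative gene, had 61.5, 113 and 32.5 CPM, and Fosl2 30.03, 73.6 and 19.0. Fos had 42, 216 and 14 UMIs, or 30.8, 34.3 and 3.21 CPM, so TAC and Sham did not differ beyond counting error (0.14, -0.33 to 0.67) while TAC+ART over TAC was -3.37 (-4.31 to -2.64). It was seen in 11.3%, 13.01% and 1.40% of macrophages. Junb had 36.6, 41.7 and 15.8 CPM and Dusp1 34.4, 42.5 and 19.0, with the low value in TAC+ART too.

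Some macrophage members were lowest in TAC. Myc had 10, 19 and 38 UMIs (7.32, 3.01 and 8.70 CPM), with -1.31 (-2.46 to -0.01) and then 1.51 (0.70 to 2.41) for TAC+ART over TAC. Dusp6, an ERK phosphatase, had 64.4, 50.4 and 68.0 CPM, and Klf4 57.9, 53.9 and 70.1. Egr2 (-0.98), Egr3 (-0.80) and Nr4a2 (-0.62) completed the 4 lowest TAC over Sham ratios, with intervals that included 0. Unlike Myc, each of them was seen in the smallest share of macrophages in TAC+ART. These shares were 0.968%, 0.753% and 2.37%, against 1.28%, 1.52% and 3.35% in TAC. Maff, at 2, 14 and 14 UMIs, was 0.53 (-0.65 to 1.71) for TAC+ART over TAC. Jun (35.2, 51.1 and 46.0 CPM), Jund (44.7, 62.7 and 52.0), Klf2 (133, 130 and 100), Egr1 (16.1, 14.9 and 7.56), Nr4a1 (22.0, 16.7 and 13.1), Atf3 (19.8, 18.4 and 9.62) and Zfp36 (29.3, 30.9 and 21.5) lay within 1.5-fold in TAC over Sham. So did Ier2, Ier3, Ier5, Klf6, Cebpd, Csrnp1, Maff, Errfi1, Gadd45b and Gadd45g, from -0.54 (Gadd45b) to 0.33 (Maff). Fosb (13 UMIs), Fosl1 (4), Nr4a3 (14) and Dusp5 (8) were not measured.

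In cardiomyocytes, the contracting cells, 21 members were measured in only 153 to 257 cells per library. Of these 16 were 1.5-fold higher in TAC than Sham and 1 lower, with a median of 1.34, but 28.8% of all measured genes were 1.5-fold higher and 18.4% lower. From TAC to TAC+ART 18 of 21 were lower (all genes 22.4%) and 1 higher (12.3%), and their median was -1.05. TAC+ART had 5 members 1.5-fold higher than Sham (16.2%) and 5 lower (9.56%). Without Egr1, Ier2 and Srf, measured only through TAC, and Gadd45b, measured only through TAC+ART, 13 of 17 were higher in TAC than Sham and 15 lower in TAC+ART than TAC. With at least 100 UMIs asked for, the counts were 8 of 12 and 10 of 12. Centred on the housekeeping list, whose median was 0.98 here, the 16 became 6, and the ratios of Fosl2 (0.65), Klf6 (0.67) and Cebpb (0.85) turned to -0.33, -0.32 and -0.14.

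Other RNA moved with this class in the same libraries. Fibroblast markers summed to 545 CPM in Sham cardiomyocytes, 1840 in TAC and 1810 in TAC+ART, endothelial markers to 195, 548 and 316, and macrophage markers to 66.8, 437 and 253. All 10 fibroblast, 9 endothelial and 10 macrophage markers were detected there. Mitochondrial genes took 0.857%, 2.27% and 1.27% of UMIs, Malat1 12.7%, 9.44% and 10.99%, and median depth was 8104, 6711 and 7791 UMIs. Their part in the members' values was not tested. In the other direction, cardiomyocyte genes stood in the other 6 classes at a low share of their cardiomyocyte level, Myh6 at 7.70% to 13.9%, Tnnt2 at 8.66% to 13.1%, Ttn at 3.24% to 5.07% and Ryr2 at 2.39% to 4.24%. The share was highest in TAC+ART in all 6 classes for Myh6 and Ryr2, in all but pericytes for Tnnt2 and in none for Ttn.

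Nr4a1 was the only measured member at least 1.5-fold lower in TAC. It had 347 UMIs in Sham cardiomyocytes, 59 in TAC and 43 in TAC+ART, or 183, 53.8 and 22.0 CPM, with -1.75 (-2.19 to -1.36) and -1.28 (-1.89 to -0.70). It was seen in 49.2%, 19.6% and 12.5% of the cells, and the 10 cells with the most UMIs held 27.1%, 64.4% and 48.8% of its UMIs, with at most 13 in 1 cell. Sik1 was also highest in Sham, at 34.2, 24.6 and 11.8 CPM, with an interval for TAC over Sham (-1.18 to 0.19) that included 0. Dusp1 (47.9, 50.2 and 21.5 CPM) and Gadd45b (4.74, 4.56 and 12.3) were the other 2 of the 4 lowest ratios, at 0.07 and 0.01. Gadd45b, a stress-response gene, was the only measured member 1.5-fold higher in TAC+ART than TAC, from 5 to 24 UMIs (1.32, 0.01 to 3.18). Next highest were Klf6 (-0.15), Cebpb (-0.39) and Ier3 (-0.77).

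The highest cardiomyocyte ratios rested on few UMIs. Cebpd had 9, 29 and 26 UMIs (2.43, 1.36 to 3.75), Ier2 had 8, 18 and 16 (1.92), Zfp36 had 14, 28 and 19 (1.77) and Srf had 11, 22 and 15 (1.76). Jun, with 54, 94 and 67 UMIs, had 28.4, 85.7 and 34.3 CPM and 1.59 (1.1 to 2.10), and Jund 31.0, 67.5 and 37.9 CPM. Klf2 had 18.4, 51.1 and 24.6 CPM, Klf4 10.0, 33.8 and 19.5, Junb 8.95, 22.8 and 11.3 and Egr1 5.26, 13.7 and 4.61. All 4 were higher in TAC than in Sham, with intervals above 0. Egr1, like Ier2 and Srf, was measured in cardiomyocytes only through its TAC UMIs, so it could be measured only by being high there. The lowest TAC+ART over TAC ratios were those of Egr1 (-1.54), Zfp36 (-1.38), Srf (-1.37) and Jun (-1.32), and Ier3, Ier5, Btg2 and Errfi1 lay between 0.34 (Btg2) and 1.49 (Ier3) for TAC over Sham. Fos had 3 UMIs in Sham and 8 in TAC and none in TAC+ART, where 3 counts, the limit that a count of 0 allows, are 1.54 CPM, against 7.30 CPM in TAC (1.58 in Sham), and the log2 interval of TAC+ART over TAC reached up to -1.60. Fos, Egr2, Egr3, Atf3, Nr4a2, Nr4a3, Dusp5, Dusp6, Myc, Maff, Csrnp1 and Gadd45g had under 30 UMIs, and Fosb and Fosl1 had none.

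Across classes, 21 members were measured in all 4 main classes. Of these, 1 (Cebpb) was 1.5-fold higher in TAC than Sham in all 4, 6 in 3 classes, 10 in 2 and 4 in 1. Centred on the housekeeping list, the Cebpb ratio in cardiomyocytes turned to -0.14. Of the 10139 genes measured in all 4, 4.71% were higher in 4 classes, 4.13% in 3, 7.77% in 2 and 21.4% in 1. In TAC+ART over TAC 5 members were 1.5-fold lower in all 4 classes, 8 in 3, 4 in 2, 3 in 1 and 1 in none, beside 0.75%, 1.22%, 4.66%, 22.6% and 70.7% of all those genes. For 12 members the same class of the 7 had the highest CPM in all 3 libraries. Endothelial cells held Ier5, Klf2, Klf4, Btg2 and Dusp1, macrophages Fos, Atf3 and Dusp6, fibroblasts Junb and Cebpd, pericytes Errfi1 and lymphatic endothelial cells Cebpb. For the other 23 the highest class differed between libraries.

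For Egr1 and Nr4a1 the leading class differed between libraries. In pericytes, the mural cells of small vessels, Egr1 had 324, 71 and 50 UMIs, or 222, 46.4 and 27.1 CPM, with -2.25 (-2.65 to -1.88) for TAC over Sham. It was seen in 39.3% of Sham pericytes, 13.7% in TAC and 8.77% in TAC+ART. In endocardial cells, the lining of the chambers, it had 103, 28.0 and 8.97 CPM. So the highest Egr1 level lay in pericytes in Sham and in fibroblasts in TAC. Nr4a1 was highest in cardiomyocytes in Sham (183 CPM) and in endothelial cells in TAC (59.3), and endocardial cells had 52.9, 12.6 and 11.05. In Sham endocardial cells 10 of 188 cells held 66.7% of the 51 Nr4a1 UMIs and 52.5% of the 99 Egr1 UMIs. Errfi1 in pericytes had 215, 632 and 250 CPM, with 1.55 (1.37 to 1.74) and -1.34 (-1.50 to -1.18).

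**Figure D3:**
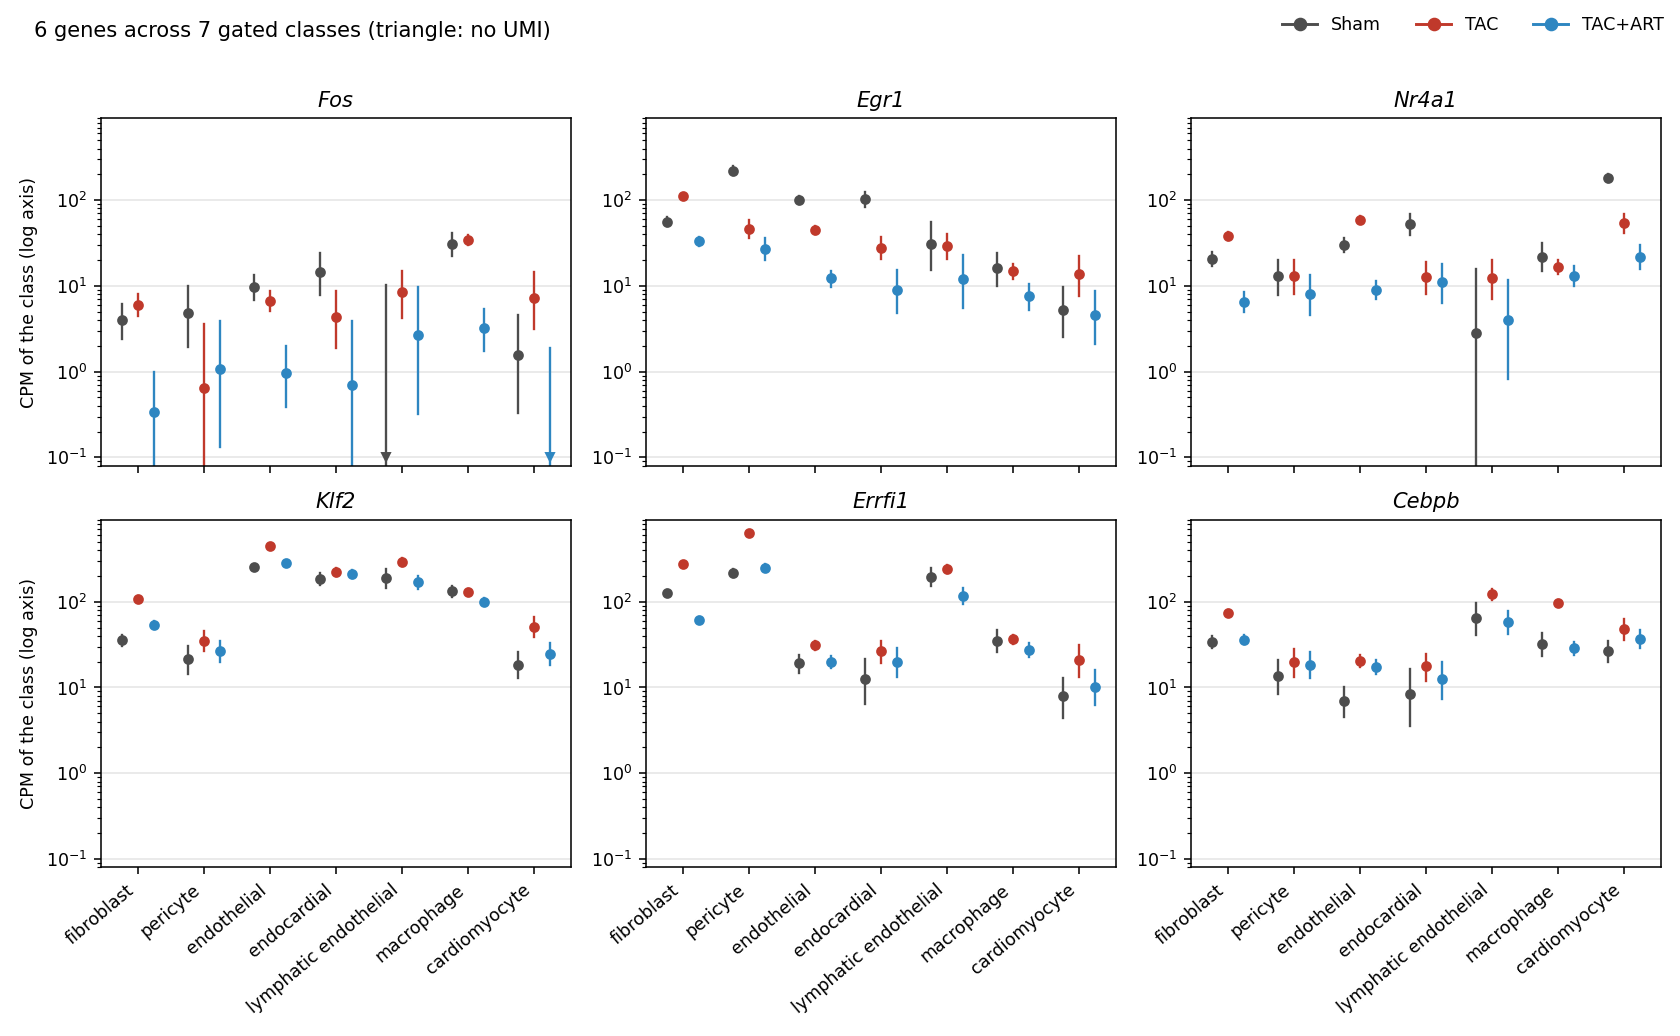
CPM of Fos, Egr1, Nr4a1, Klf2, Errfi1 and Cebpb in the 7 gated classes, on a log axis; points are class sums of each library, lines 95% Poisson intervals, and triangles stand for no UMI. Egr1 is highest in Sham in pericytes, endothelial and endocardial cells and highest in TAC in fibroblasts, and Errfi1 in pericytes peaks in TAC at 632 CPM.

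The share of cells showing a member differed in the same way. With each cell thinned to 1000 UMIs, 49.8%, 22.7% and 43.0% of fibroblasts showed no member, and 5.78%, 22.5% and 6.42% showed at least 3. In endothelial cells 17.8%, 33.2% and 13.3% showed at least 3, in macrophages 8.33%, 11.2% and 4.62%, and in cardiomyocytes 1.68%, 4.58% and 1.17%. The TAC share was highest in each class, although in cardiomyocytes it rests on 7 TAC cells. Without thinning the shares with at least 3 were 53.0%, 92.4% and 68.3% in fibroblasts, 69.9%, 91.1% and 71.5% in endothelial cells, 65.0%, 79.5% and 54.8% in macrophages and 57.6%, 80.4% and 50.6% in cardiomyocytes.

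**Figure D4:**
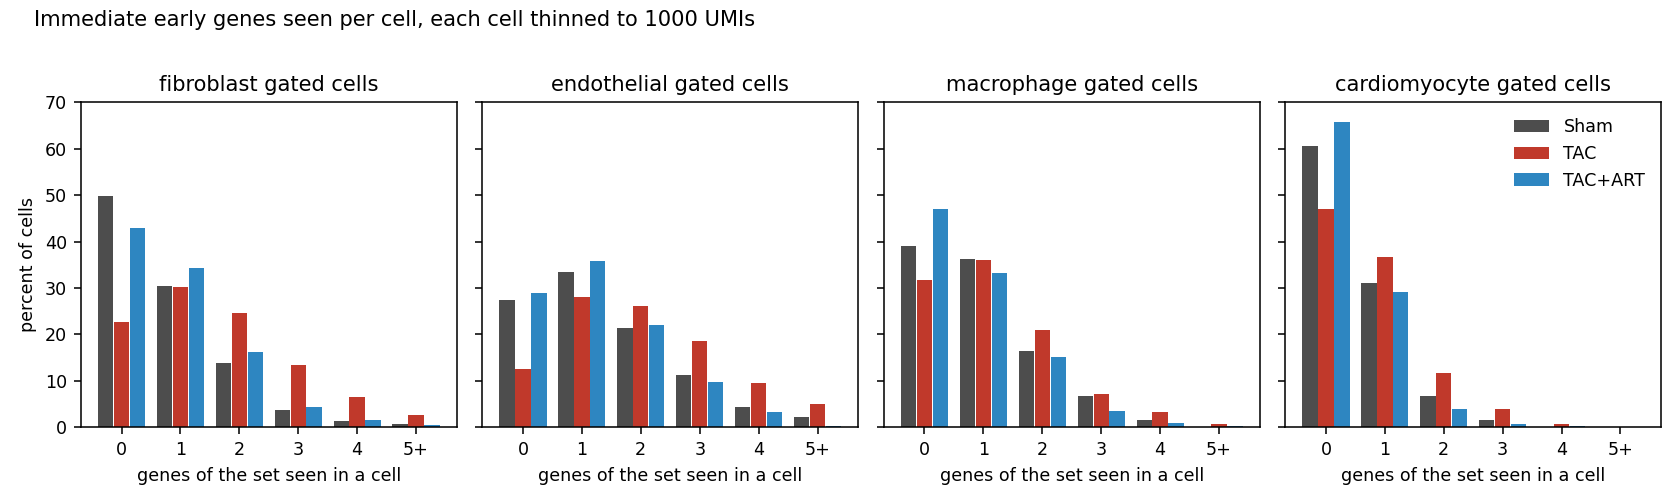
Share of cells in which 0, 1, 2, 3, 4 or at least 5 members were seen, each cell thinned to 1000 UMIs, by library in the 4 main classes. The TAC bars are lowest at 0 members in all 4 classes, with 22.7% in fibroblasts against 49.8% in Sham.

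Genes around the pathway were counted in the same way in fibroblasts. There 18.3% of all genes were 1.5-fold higher in TAC than Sham and 16.6% lower, and the housekeeping median was 0.64. Of 21 genes for MAP kinases and the SRF and CREB inputs, 2 were 1.5-fold higher in TAC (Rps6ka1, a ribosomal S6 kinase, at 1.39, and Elk3, an SRF partner, at 0.63) and none lower, with a median of 0.20 and the lowest values in Mrtfb (-0.39) and Map3k1 (-0.25). AP-1 partners and relatives had 4 of 13 higher, among them Batf (0.84), with Nfe2l2 (-0.45) and Atf2 (-0.40) lowest. ERK feedback inhibitors had 2 of 13 higher, Dusp8 (1.56) and Spry1 (0.99), and 3 lower, with Dusp14 (-2.27) and Spred3 (-0.84) lowest. Other rapidly induced genes had 16 of 26 higher and 1 lower with a median of 0.64, the same as that of the housekeeping list. Ccn2, the matrix protein CTGF, had 50.5, 468 and 249 CPM (3.21) and Il6, the cytokine, 1.19, 8.97 and 0.794 (2.81), while Plk2 (-0.73) and Per1 (-0.33) were lowest.

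The heat shock list differed in the same libraries and in every main class. Its medians for TAC over Sham were 1.16 in fibroblasts, 0.99 in endothelial cells, 1.12 in macrophages and 1.78 in cardiomyocytes, and for TAC+ART over TAC -0.70, -0.82, -0.95 and -1.46. Hspb1, a small heat shock protein, had 14.9, 72.0 and 30.2 CPM in fibroblasts and Hsph1, an HSP70 partner, 16.4, 62.9 and 21.3, while Hsf1 (0.02) and Dnajb4 (0.06) were lowest. In macrophages 12 of 16 heat shock genes were 1.5-fold higher in TAC (all genes 12.8%), led by Hspa1a at 0.732, 13.6 and 1.37 CPM. Hspa1a reached 30 UMIs there only with its TAC counts, so it could be measured only by being high in TAC. In cardiomyocytes 12 of 14 heat shock genes were higher (all genes 28.8%), led by Hsp90aa1 at 21.6, 161 and 51.7 CPM. The part of this difference in the members' values was not tested.

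In the other classes, Jdp2, an AP-1 repressor, had 36.5, 86.7 and 50.6 CPM in endothelial cells (1.24) and 43.9, 147 and 50.6 in macrophages (1.73). Cxcl1, a neutrophil-attracting chemokine, had 8.05, 49.5 and 4.03 CPM in endothelial cells (2.60). Ccl2, a monocyte-attracting chemokine, was lowest of its list in macrophages, at 47.6, 25.4 and 34.8 CPM (-0.91). Elk3 had 17, 72 and 52 UMIs in cardiomyocytes, or 8.95, 65.7 and 26.6 CPM (2.84). Lymphatic endothelial cells had 1109, 1091 and 1087 CPM of Elk3. Endothelial markers in cardiomyocytes summed to 195, 548 and 316 CPM, and their part in the Elk3 values was not tested. The MAP kinase and SRF input list had 0 of 21 genes 1.5-fold higher in endothelial cells (all genes 12.8%) and 1 of 21 in macrophages (12.8%). In cardiomyocytes 2 of 20 were 1.5-fold higher (28.8%), while Mrtfb was lower at -1.13.

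**Figure D5:**
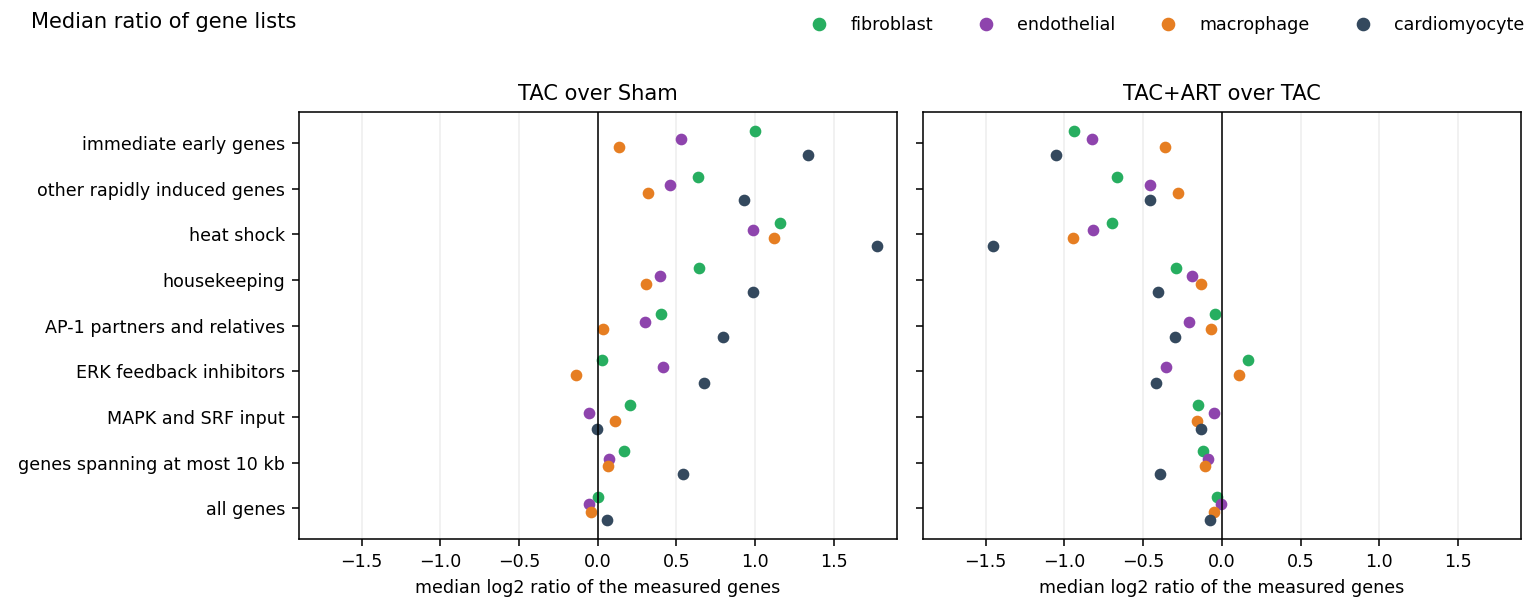
Median log2 ratio of the measured genes of each list by main class (colour), in a panel for TAC over Sham and a panel for TAC+ART over TAC. In fibroblasts the members (1.0) and the heat shock list (1.16) have the highest TAC over Sham medians, and over the 4 classes the MAP kinase and SRF input list lies between -0.06 and 0.20.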

How the data were processed

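Members and lists were chosen with earlier results of these data known. Values are raw UMI counts per gene and barcode, as deposited by the authors and not normalized. Cell Ranger, Seurat and mm10 are named, per the submitters' processing notes, with versions and annotation not given in the sources used here. Kept barcodes had 500 or more UMIs, 300 or more genes and mitochondrial genes at 10% of UMIs or less, and doublets, scored against simulated ones, were removed (112, 440 and 376). Library totals were 17710689 (Sham), 37658150 (TAC) and 33364667 UMIs (TAC+ART).

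A cell entered a class if its summed log-scaled markers, minus the library median and over the library's 99th percentile, passed 0.35 with at least 3 markers detected and no unrelated class above 0.7 of that. Scaling within libraries and a minimum of 4000 UMIs for cardiomyocytes were set after seeing the data. The markers of the main classes were as follows: fibroblast Abca8a, Col1a1, Col1a2, Col3a1, Dcn, Dpt, Gsn, Lum, Pdgfra and Tcf21; cardiomyocyte Actc1, Ctnna3, Myh6, Myl2, Myl3, Pln, Ryr2, Tnni3, Tnnt2 and Ttn; endothelial Cdh5, Cyyr1, Egfl7, Emcn, Flt1, Kdr, Pecam1, Ptprb and Tie1; macrophage Adgre1, C1qa, C1qb, C1qc, Cd163, Cd68, Csf1r, F13a1, Mrc1 and Ms4a7.

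Counts were summed per class and library. Ratios carry exact conditional binomial intervals, levels Poisson and shares Clopper-Pearson intervals. Named in each main class were the 4 highest and 4 lowest ratios and 14 fixed members; of each other list, the 2 highest and 2 lowest in fibroblasts (a gene among these is not reported here), with some of those in other classes. Gene spans came from GENCODE M21 (GRCm38), which holds 28522 of the symbols. Ratios and intervals were tested on simulated Poisson counts, the counting model that the intervals assume. That test therefore does not cover UMIs gathered in a few cells. Thinning was checked on cells of these data. Python 3.11.15, numpy 2.4.6, scipy 1.17.1, scikit-learn 1.9.0 and leidenalg 0.10.2 were used. Alternatives changed the classes, doublets, scaling, depth, count filter and added count.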

Additional observations from a re-analysis of the deposited data

Results flagged for a closer look

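Members whose ratio was at least 1.5-fold above 1 in some classes and at least 1.5-fold below 1 in others, each with an interval that excluded 0, were singled out. These differences between classes were not tested. For TAC over Sham, Egr1 had 0.99 in fibroblasts and 1.36 in cardiomyocytes but -1.16 in endothelial cells, -2.25 in pericytes and -1.87 in endocardial cells. The cardiomyocyte value (0.13 to 2.69) rests on 10, 15 and 9 UMIs, and Egr1 was measured there only through its TAC UMIs. Nr4a1 had 0.87 in fibroblasts and 0.96 in endothelial cells but -1.75 in cardiomyocytes and -2.05 in endocardial cells. In the last, 10 of 188 Sham cells held 66.7% of 51 UMIs, and the share of cells with a UMI was 13.8% in Sham and 6.09% in TAC. Its relative Nr4a2 had 0.99 in fibroblasts and -1.61 in endocardial cells. Ier2, a small nuclear protein gene, had 0.92 in fibroblasts and 1.92 in cardiomyocytes but -0.89 in pericytes. In cardiomyocytes Ier2 too was measured only through its TAC UMIs. Btg2 had 0.87 in macrophages but -0.78 in endocardial and -0.69 in lymphatic endothelial cells.

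For TAC+ART over TAC, Myc had 1.51 in macrophages, where it was measured only through its TAC+ART UMIs, and -1.28 in fibroblasts. Gadd45b had 1.32 in cardiomyocytes, from 5 UMIs in TAC and likewise measured only through TAC+ART, and -1.07 in fibroblasts. Endocardial and lymphatic endothelial classes held 75 to 312 cells per library, and their intervals were wide.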

How the results depend on the processing

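No paired analysis was possible because each group is 1 library. Over all other settings, 141 counts of members past 1.5-fold stayed within 1.5 times the reported count and 27 did not. Of the medians, 162 stayed within the counting interval of the middle member and 6 did not. Called directions held under the 5 scalings apart from 3. Those were Fosl2 (-0.33), Klf6 (-0.32) and Cebpb (-0.14) for TAC over Sham in cardiomyocytes, centred on the housekeeping list, a reference added after seeing the data like that of genes spanning at most 10 kb. The same centring gave for TAC over Sham 8 members 1.5-fold higher in fibroblasts (median 0.36), 5 in endothelial cells (0.14), 2 in macrophages and 6 in cardiomyocytes (0.35). It gave a fibroblast TAC+ART over TAC median of -0.65, and 2 members higher in TAC+ART than Sham in fibroblasts and in cardiomyocytes. Clusters in place of the gate gave 8 macrophage members higher in TAC than Sham. For TAC+ART over Sham, macrophages had 1 member higher, and 0 with a stricter gate, cells of at most 8000 UMIs, at least 100 UMIs per gene, or 30 UMIs outside the library with the most (a filter also added after seeing the data). They had 2 with doublets kept, centring on all genes or on genes spanning at most 10 kb, or means over cells. Cardiomyocytes had 8 higher from clusters, 3 with doublets kept or with that added filter, 1 at 100 UMIs and 9 without a filter, where endothelial cells had 4. At 100 UMIs cardiomyocytes had 8 members higher in TAC than Sham and 10 lower in TAC+ART than TAC, and 28 lower without a filter. Thinned to 1000 UMIs only 2 cardiomyocyte members were measured: 1 was higher in TAC (median 0.18), 2 lower in TAC+ART than TAC, and 0 higher in TAC+ART than Sham (median -1.36). Fewer genes pass at a higher minimum; for the other settings the cause was not tested. Of the main classes cardiomyocytes had the fewest cells in each library, 153 to 257.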
